A study of Mus musculus with 12 samples.

Results

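Plasminogen activators and serpins were followed in RIP1-Tag2 islets on both sides of the angiogenic switch. The 6 genes were chosen by name: Plau, Plat and Plaur on the activator side and Serpine2, Serpinf1 and Serping1 among the serpins. Of these 6, 5 had a transcript cluster paired with that symbol alone and were measured, out of 19938 genes in all. Serpine2 was not analysed here. Each of the 5 had a single such cluster, 10413047 for Plau, 10550906 for Plaur, 10570855 for Plat, 10388430 for Serpinf1 and 10484463 for Serping1, so no choice between clusters was needed and a second probe set could not be used as a check. Total RNA came from pools of angiogenic and non angiogenic islets, sorted by their appearance. It was read on 6 Affymetrix mouse gene arrays per group. All pools came from Rip1Tag2 mice on a C57BL/6 background at 8 weeks of age, so both groups carried the oncogene, the SV40 T antigen driven in beta cells by the insulin promoter, and islets of wild type mice were not analysed here. Whether each array held a separate pool, how many mice or islets a pool held, and whether pools shared mice are not in the labels. Some arrays may thus be repeats of the same pool, and the p-values describe only the spread among these arrays.

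Plasminogen, a zymogen that reaches tissues from the blood, becomes the broad protease plasmin when the urokinase-type activator uPA or the tissue-type activator tPA cuts it. Plasmin dissolves fibrin, degrades matrix and releases growth factors held there, and the receptor uPAR gathers uPA at the cell surface. Serpins are a family of folded protease traps, most of which inhibit serine proteases by forming a stable complex, while some, such as the product of Serpinf1, have lost that activity. Endothelial cells that form new vessels are a known source of both activators.

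Values are log2 levels made with RMA, a method that subtracts background, brings the arrays to a common scale and combines probes, so that a difference of 1 equals a 2-fold change. Medians of the arrays lay between 7.30 and 7.38. Precision is set by the number of arrays. The first principal component held 41.5% of the variance. The arrays were taken as sets of replicates 1 to 3 and replicates 4 to 6. With group in the model, 36.9% of genes differed between these sets (adjusted p under 0.05 from limma). The paper speaks of a pair of profiling experiments, while the labels do not assign arrays to them, so whether the sets are those experiments is not known. Values within the sets are given for the members and where a call depends on them. Of 10 measured beta cell markers none was higher and 1 fell past the 0.05 threshold on limma's adjusted p, the peptide hormone gene Ucn3 (log2 difference -0.25, limma adjusted p = 0.029). With the set as a block 3 were lower, Ucn3, Nkx6-1 (-0.23) and Slc2a2 (-0.23), where 2.74% of all genes were called lower. The array means of these markers ran from 11.73 to 11.87 in angiogenic and from 11.74 to 11.98 in non angiogenic islets. Markers of other cell types moved with the groups, counted at the same threshold, where 3.55% of all genes were called higher and 0.948% lower. Endothelial markers rose in 12 of 15 cases in angiogenic islets, with array means from 9.44 to 9.62 in angiogenic and from 8.98 to 9.15 in non angiogenic islets. Among markers of pericytes and smooth muscle, 11 of 12 were higher (8.56 to 8.93 in angiogenic and 7.91 to 8.09 in non angiogenic islets). The same count was reached by fibroblast markers, 11 of 12 (8.98 to 9.25 in angiogenic and 7.89 to 8.27 in non angiogenic islets), and 7 of 12 macrophage markers were higher (7.93 to 8.34 in angiogenic and 7.61 to 7.84 in non angiogenic islets). No marker of these 4 lists passed the threshold as lower. The part of these cell types in the results that follow was not tested, and in whole islets a larger number of cells of a type and more RNA per cell cannot be told apart. Neutrophil markers overlapped between the groups, at 5.63 to 5.81 in angiogenic and 5.61 to 5.82 in non angiogenic islets, and so did those of acinar cells, at 7.77 to 11.09 in angiogenic and 7.58 to 12.17 in non angiogenic islets.

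Of the 5 measured genes, Serpinf1, Plat and Serping1 were higher in angiogenic islets at the threshold of 0.05 on limma's adjusted p, and none was lower. Over all genes tested, 3.55% were called higher and 0.948% lower, 4.5% in either direction. The 5 measured genes had a median log2 difference of 0.36, against -0.02 over all genes. The members, like the lists below, were chosen with earlier results of these data known. Their counts and medians set against all genes are thus descriptions and not independent evidence. Differences ran from 0.13 for Plaur to 1.07 for Serpinf1. All 5 were positive within each set of arrays, and with the set as a block Plau passed as well, which made 4 of 5 (5.88% of all genes were called higher and 2.74% lower in that fit). No member passed the test of whether the difference itself differed between the sets (interaction term, limma adjusted p from 0.82 to 0.97), which called 1 of all genes (0.00502%).

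**Figure D1:**
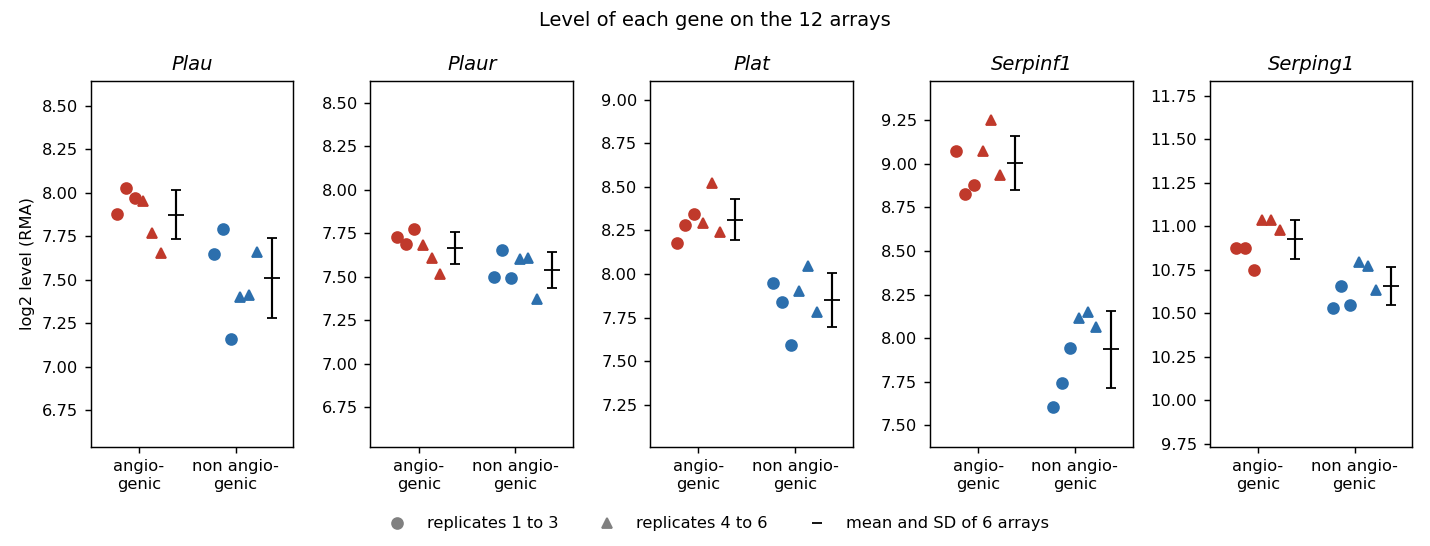
Log2 level of each measured gene on the 12 arrays, angiogenic islets (red) left of non angiogenic islets (blue), with circles for replicates 1 to 3, triangles for replicates 4 to 6 and the mean and SD of 6 arrays in black. All panels span the same range of log2 units, and Serpinf1 and Plat show no overlap between the groups, with lowest angiogenic arrays of 8.83 and 8.18 against highest non angiogenic arrays of 8.15 and 8.05.

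Plat encodes tPA, the activator that works best on fibrin and is stored and released by endothelial cells. In replicates 1 to 3 its log2 level was 8.18, 8.28 and 8.35 in angiogenic islets, against 7.95, 7.84 and 7.59 in non angiogenic islets. In replicates 4 to 6 it was 8.29, 8.52 and 8.24 in angiogenic islets, against 7.91, 8.05 and 7.78 in non angiogenic islets. Every angiogenic array thus lay above every non angiogenic array, a separation that 2.85% of all genes had in this direction and 0.923% in the opposite one. The mean was 8.31 ± 0.12 in angiogenic and 7.85 ± 0.16 in non angiogenic islets (SD over 6 arrays each), a ratio of 1.37 with a 95% interval of 1.23 to 1.54 (log2 difference 0.46, with its standard error, SE, of 0.08, limma adjusted p = 0.0018). Both sets gave nearly the same ratio, 1.39 in replicates 1 to 3 and 1.36 in replicates 4 to 6, and Plat passed in each set of 3 against 3 arrays (limma adjusted p = 0.029 and 0.034), where 2.37% and 3.11% of all genes were called higher. It also passed in all 12 fits without 1 array, with adjusted p of at most 0.0061. The study measured Plat by RT-qPCR as well and reports it as significantly higher in angiogenic islets. The RT-qPCR values were not analysed here.

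Plau encodes uPA, the activator of cell migration and matrix breakdown. Its level in angiogenic islets was 7.88, 8.03 and 7.97 in replicates 1 to 3 and 7.95, 7.77 and 7.65 in replicates 4 to 6. In non angiogenic islets it was 7.65, 7.79 and 7.16 in replicates 1 to 3 and 7.40, 7.41 and 7.66 in replicates 4 to 6. The groups were apart within replicates 1 to 3, a separation whose share over all genes was not counted. They met within replicates 4 to 6, where the lowest angiogenic array and the highest non angiogenic array were nearly equal. Plau was 7.87 ± 0.14 in angiogenic and 7.51 ± 0.23 in non angiogenic islets (SD over 6 arrays each), a ratio of 1.29 with a 95% interval of 1.11 to 1.49. It did not pass over all genes (log2 difference 0.36, SE 0.10, limma adjusted p = 0.053). The call lay at the threshold. With the set as a block the adjusted p was 0.022, without non angiogenic replicate 2 it was 0.022 and without angiogenic replicate 6 it was 0.040, whereas the other 10 fits without 1 array gave 0.056 to 0.11.

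Plaur encodes uPAR, the anchored surface receptor that binds uPA and works together with integrins. It had the smallest difference of the 5 genes. The lowest, median and highest levels were 7.51, 7.69 and 7.78 in angiogenic islets and 7.37, 7.55 and 7.65 in non angiogenic islets. The 4 highest angiogenic arrays lay above every non angiogenic array and the other 2 within the range of the non angiogenic arrays. The difference of 0.13 (SE 0.06) did not pass (limma adjusted p = 0.34). The 95% interval of the ratio ran from 1.0 to 1.19. The receptor gene was 0.18 higher in replicates 1 to 3, where the groups did not overlap, and 0.07 higher in replicates 4 to 6, where they did. How common such a separation within a set is over all genes was not counted.

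Serpinf1 encodes pigment epithelium-derived factor (PEDF), a secreted serpin without protease-inhibiting activity that is known as an inhibitor of angiogenesis. It showed the largest change of the 5 genes. In replicates 1 to 3 its level was 9.08, 8.83 and 8.88 in angiogenic islets, against 7.60, 7.74 and 7.94 in non angiogenic islets. In replicates 4 to 6 it was 9.07, 9.25 and 8.94 in angiogenic islets, against 8.11, 8.15 and 8.06 in non angiogenic islets. The gap between the lowest angiogenic and the highest non angiogenic array was wide compared with the spread inside either group. The mean was 9.01 ± 0.16 in angiogenic and 7.94 ± 0.22 in non angiogenic islets (SD over 6 arrays each). The ratio was 2.10, with a 95% interval of 1.82 to 2.43 (log2 difference 1.07, SE 0.10, limma adjusted p = 1.10e-05), and its interval lay above that of Plat, although the difference between the genes was not tested. Replicates 1 to 3 gave a ratio of 2.24 and replicates 4 to 6 one of 1.97 (adjusted p = 2.66e-04 and 5.66e-04 from limma). Serpinf1 was also higher in replicates 4 to 6 than in replicates 1 to 3 with group in the model, by 0.25 (SE 0.07, limma adjusted p = 0.013). The study chose this gene on the same arrays for its list of matrix genes, so the direction is not independent evidence.

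Serping1 encodes C1 inhibitor, which blocks the complement proteases C1r and C1s and the contact proteases kallikrein and factor XII. In replicates 1 to 3 the level was 10.88, 10.87 and 10.75 in angiogenic islets, against 10.53, 10.65 and 10.55 in non angiogenic islets. In replicates 4 to 6 it was 11.04, 11.03 and 10.98 in angiogenic islets, against 10.80, 10.77 and 10.63 in non angiogenic islets. Within each set the groups did not overlap, while over all 12 arrays they overlapped. The share of all genes that are apart within a set was not counted, so no weight is put on this separation. With group in the model, the level was higher in replicates 4 to 6 than in replicates 1 to 3 by 0.17 (SE 0.04, limma adjusted p = 0.0095). The mean was 10.92 ± 0.11 in angiogenic and 10.66 ± 0.11 in non angiogenic islets (SD over 6 arrays each). The ratio was 1.21, with a 95% interval of 1.10 to 1.33 (log2 difference 0.27, SE 0.06, limma adjusted p = 0.026), and 1.19 and 1.22 in the 2 sets. The set as a block gave limma adjusted p = 0.0010. Without a block the call did not hold in 7 of the 12 fits on 11 arrays, with adjusted p of 0.068, 0.070 and 0.067 without angiogenic replicates 4, 5 and 6, and of 0.061, 0.051, 0.062 and 0.056 without non angiogenic replicates 1, 2, 3 and 6.

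**Figure D2:**
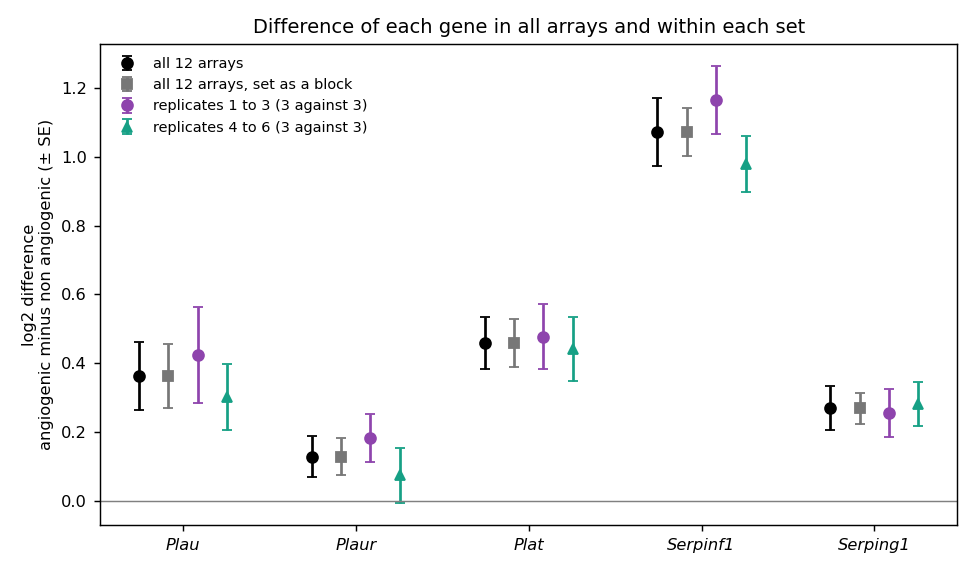
Log2 difference (angiogenic minus non angiogenic) of each measured gene with its standard error, for all 12 arrays, with array set as a block, and within replicates 1 to 3 and replicates 4 to 6. Serpinf1 stands highest in every fit, at 0.98 or more, and Plaur lowest, at 0.18 or less.

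**Figure D3:**
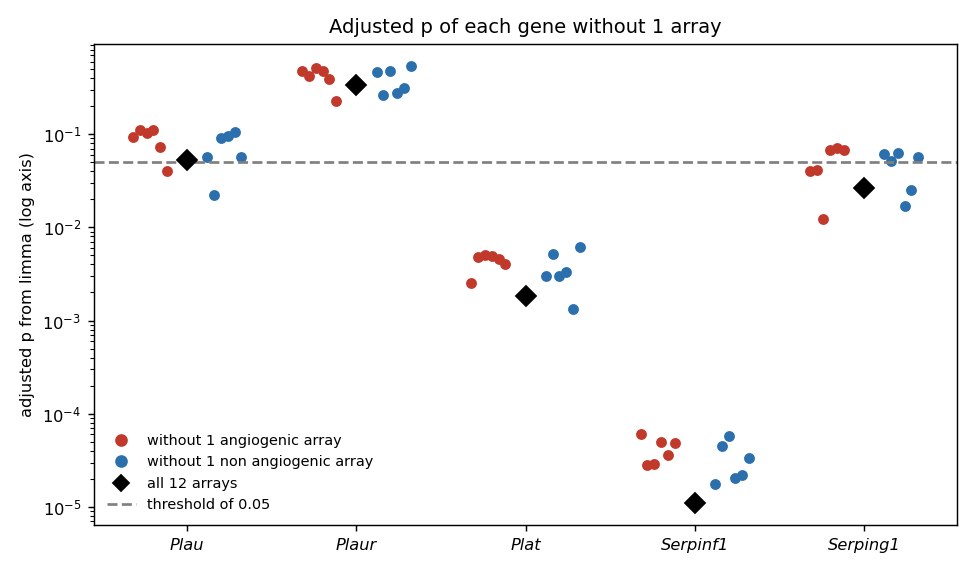
Adjusted p from limma on a log axis for each measured gene with all 12 arrays (black) and without 1 angiogenic array (red) or 1 non angiogenic array (blue), with the threshold of 0.05 as a dashed line. Serpinf1 and Plat stay below the line in all 12 fits, Plaur stays above it, and Plau and Serping1 cross it, with 2 and 5 of 12 fits past the threshold.

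For 2 of the 5 genes, Plaur and Serpinf1, RefSeq promoters of build GRCm38.p6 were at hand, each with 250 bases before and 50 after the start of the gene. They are shown as the members with a sequence in that table, and happen to be those with the smallest and the largest difference of the 5. Capitals mark every match on either strand to 5 motifs: the AP-1 element TGANTCA, the GC box GGGCGG, the SMAD element CAGACA, the TATA box TATAAA and the E-box CACGTG. The Plaur sequence lies at chr7:24462233-24462532 on the plus strand and the Serpinf1 sequence at chr11:75422574-75422873 on the minus strand.
Plaur: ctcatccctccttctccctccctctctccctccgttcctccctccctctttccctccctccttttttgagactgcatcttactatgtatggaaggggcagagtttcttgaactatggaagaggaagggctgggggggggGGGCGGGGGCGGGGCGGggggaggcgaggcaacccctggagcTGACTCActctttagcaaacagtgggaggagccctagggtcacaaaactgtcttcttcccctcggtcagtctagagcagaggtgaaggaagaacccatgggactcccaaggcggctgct
Serpinf1: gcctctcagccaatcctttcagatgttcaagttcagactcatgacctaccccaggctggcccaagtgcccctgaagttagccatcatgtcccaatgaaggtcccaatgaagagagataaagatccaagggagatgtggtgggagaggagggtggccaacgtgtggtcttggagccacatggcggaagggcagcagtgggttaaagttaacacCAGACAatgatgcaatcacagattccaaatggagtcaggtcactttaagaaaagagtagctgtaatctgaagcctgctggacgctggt
The Plaur window held 3 GC boxes, starting at positions -111, -105 and -100 from the start site, of which the second and the third share 1 base, and 1 AP-1 element at -69. GC boxes were found in 35.7% and AP-1 elements in 7.81% of 32851 windows of the same length. The Serpinf1 window held 1 SMAD element at -38, a motif found in 21.0% of windows, and no match to the other 4. Bases G and C made up 59.3% of the Plaur window and 50.7% of the Serpinf1 window. TATA boxes and the E-box were found in 13.6% and 7.15% of all windows. These matches are descriptions of the letters only.

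Genes whose levels ran closest to a member over the 12 arrays were found by the root mean square difference between the levels, each gene centred on its own mean. For Plau the nearest were Sox7, a transcription factor gene of endothelial cells, at 0.08 log2 units, then Ccn1 at 0.10 and the Notch ligand gene Dll4 at 0.11, where the median over all genes was 0.28. For Plat they were Dusp6, a phosphatase gene of the ERK pathway, at 0.10, Plekhg1 at 0.10 and Apln, which encodes the vessel peptide apelin, at 0.11 (median 0.30). Serpinf1 was nearest to Fscn1, the gene of the actin-bundling protein fascin, and Gpx8, both at 0.13, and to the pericyte receptor gene Pdgfrb at 0.14 (median 0.59). Serping1 was nearest to the protease gene Ctsb at 0.06, Slc9a3r2 at 0.06 and Map3k20 at 0.06 (median 0.22). For Plaur, Man1a, Pfkfb3 and Tmbim1 were nearest, all at 0.06, against a median of 0.17. No nearest gene was shared by any 2 members, and the members themselves were farther apart, the closest pairs being Plat with Serping1 and Plaur with Serping1 at 0.16 each. The measure takes in both the difference between the groups and that between the sets.

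Beyond the members, 31 of 36 listed genes of the plasminogen system were measured. Of these, 6 were higher and none was lower at the threshold of 0.05 on limma's adjusted p, against 3.55% and 0.948% of all genes, and their median log2 difference was 0.02, against -0.02 over all genes. At an unadjusted p under 0.05, limma had 12 higher and 3 lower, against 1548 and 1313 of all 19938 genes. F2r, the thrombin receptor gene PAR1, was 8.97 ± 0.16 in angiogenic and 8.10 ± 0.19 in non angiogenic islets (SD over 6 arrays each), a ratio of 1.83 (limma adjusted p = 3.95e-05). Mrc2, the gene of a collagen receptor that associates with uPAR, was 7.84 ± 0.18 in angiogenic and 6.98 ± 0.09 in non angiogenic islets (SD over 6 arrays each), a ratio of 1.81 (limma adjusted p = 9.02e-06). Neither gene had arrays that overlapped between the groups. Anxa2, the gene of annexin A2, a surface binding site for tPA and plasminogen, was 1.72-fold higher (limma adjusted p = 1.50e-04), and the study has it in its list of matrix genes too. Its binding partner gene S100a10 gave 0.02 (SE 0.12). Lrp1, the gene of the receptor that clears complexes of activators and their inhibitors, was 1.51-fold higher (limma adjusted p = 6.09e-05). The others were the protein C receptor gene Procr at 1.27-fold (limma adjusted p = 0.020) and the integrin gene Itgb3 at 1.18-fold (limma adjusted p = 0.011), neither of which passed in either set alone (limma adjusted p from 0.066 to 0.18). Receptor genes of the list that did not pass included Vldlr (-0.16), Plgrkt (-0.05), Itgav (0.01), Igf2r (0.12), Itgam (0.13) and Thbd (0.17).

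Genes of the substrate and of direct inhibitors did not pass. Plg, the plasminogen gene, ran from 5.85 to 6.05 in angiogenic and from 5.73 to 6.01 in non angiogenic islets (log2 difference 0.02, SE 0.06). Among serpins that inhibit the activators or plasmin, the log2 difference was 0.02 for Serpinb2, -0.08 for Serpina5, -0.03 for the neuroserpin gene Serpini1 and -0.03 for the antiplasmin gene Serpinf2 (standard errors 0.06, 0.07, 0.13 and 0.07, adjusted p from 0.73 to 0.96 from limma). Serpini1 spread widely in both groups, from 8.06 to 8.62 in angiogenic and from 8.08 to 8.67 in non angiogenic islets. By mean level over all arrays, Serpinb2, Serpina5 and Plg were weak, at percentiles 12.2, 15.1 and 21.1 of all genes. RMA compresses differences at such levels, so these values cannot show that the genes were unchanged. Serpinf2 stood at percentile 39.1 and Serpini1 at 59.3. Vtn, the gene of the matrix protein vitronectin, which binds uPAR, had the largest difference that did not pass, 0.32 with a standard error of 0.10 (limma adjusted p = 0.11), and passed with the set as a block (limma adjusted p = 4.05e-04) and without non angiogenic replicate 4 (limma adjusted p = 0.049). With the set as a block 9 of the 31 genes were higher and 1 was lower, against 5.88% and 2.74% of all genes, the additions being Vtn, Itgb2 and Tfpi among the higher and Hgfac as the lower gene.

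**Figure D4:**
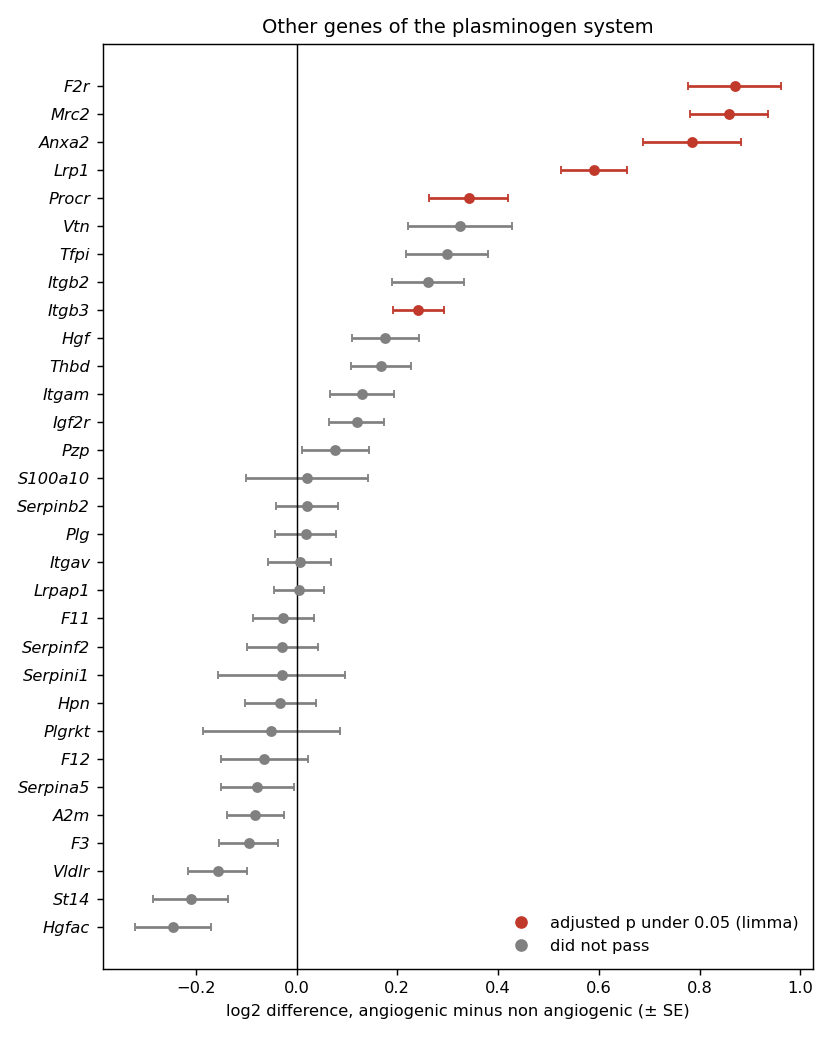
Log2 difference (angiogenic minus non angiogenic) with its standard error for 31 other genes of the plasminogen system over 12 arrays, red where the adjusted p from limma was under 0.05 and grey where it was not. Red points run from Itgb3 at 0.24 to F2r at 0.87, and the grey points reach down to Hgfac at -0.25.

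Few of the other serpins passed. Of 46 other serpin genes, 2 were higher and 1 was lower at the threshold of 0.05 on limma's adjusted p, against 3.55% and 0.948% of all genes, and the median difference was -0.02. Serpinh1, which encodes the collagen chaperone Hsp47 of the endoplasmic reticulum, was 9.19 ± 0.11 in angiogenic and 8.47 ± 0.20 in non angiogenic islets (SD over 6 arrays each), a ratio of 1.65 (limma adjusted p = 1.13e-04), with no overlap between the groups. Serpina3n, an inhibitor gene of the antichymotrypsin group, was 1.47-fold higher (limma adjusted p = 0.035), at 7.58 to 7.93 in angiogenic and 6.83 to 7.81 in non angiogenic islets. Its call was lost without angiogenic replicates 4, 5 or 6 and without non angiogenic replicates 1, 2, 3 or 6 (adjusted p from 0.070 to 0.088 in these 7 fits). It passed in replicates 1 to 3 alone (0.67, limma adjusted p = 9.65e-04) but not in replicates 4 to 6 alone (0.44, limma adjusted p = 0.14). Serpina10, which encodes the inhibitor that acts with protein Z on coagulation factor X, fell by 0.41 on the log2 scale (SE 0.09, limma adjusted p = 0.020). Its levels spanned 8.54 to 9.04 over the angiogenic arrays and 9.02 to 9.51 over the non angiogenic arrays, so that the ranges just met. Replicates 1 to 3 gave -0.40 (limma adjusted p = 0.22) and replicates 4 to 6 gave -0.41 (limma adjusted p = 0.023). Serpina1c had the largest difference that did not pass (0.22, SE 0.15, limma adjusted p = 0.58). Members of the Serpina1 and Serpina3 groups are near copies of each other, so their probes may share signal. Serpinh1 and Serpina3n were chosen by the study on these arrays.

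C1 inhibitor acts at the start of the classical complement pathway, and 12 of 15 listed genes of its target proteases and their partners were measured. By the same test, 3 were higher and none was lower, against 3.55% and 0.948% of all genes, and with the set as a block 7 were higher, against 5.88% of all genes. The median log2 difference was 0.24. The recognition subunit genes C1qb and C1qc, which macrophages express, were 1.42-fold and 1.32-fold higher (adjusted p = 0.0022 and 0.015 from limma). In replicates 4 to 6 alone C1qc did not pass (0.28, limma adjusted p = 0.26). The remaining subunit gene, C1qa, overlapped between the groups and did not pass (0.27, SE 0.12, limma adjusted p = 0.29). With the set as a block C1qa passed (limma adjusted p = 0.034). C1qb was also on the study's list of matrix genes, chosen on these arrays. Masp1, a protease gene of the lectin pathway, was 1.26-fold higher (limma adjusted p = 0.030), and its call was lost in 6 of 12 fits, those without angiogenic replicates 1, 5 or 6 and without non angiogenic replicates 3, 5 or 6 (adjusted p from 0.053 to 0.080). Its difference was 0.18 (limma adjusted p = 0.31) for replicates 1 to 3 and 0.50 (limma adjusted p = 0.036) for replicates 4 to 6. C1s1, the gene of a protease that C1 inhibitor blocks directly, had the largest difference, 0.74, but a wide spread, 7.74 ± 0.38 in angiogenic and 7.0 ± 0.47 in non angiogenic islets (SD over 6 arrays each, limma adjusted p = 0.064). It passed with the set as a block (limma adjusted p = 3.08e-04) and without non angiogenic replicate 4 (adjusted p = 0.015). C1s2 gave 0.39 (SE 0.11, adjusted p = 0.055, and 0.0016 with the set as a block, both from limma), and as C1s1 and C1s2 are near copies their probes may share signal. The contact protease genes F12 and F11, which were on the plasminogen list too, had differences of -0.06 and -0.03 with standard errors of 0.09 and 0.06.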

How the data were processed

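The deposited unit is log2, 1 value per transcript cluster and array, which the authors made with RMA in Affymetrix Expression Console per the submitters' processing notes. Neither tool versions nor joint normalization of the 12 arrays could be read from the sources. RMA compresses weak signals and hides a change in total RNA. Groups and replicate numbers came from the labels.

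Clusters with exactly 1 symbol in the platform annotation were kept (21789 of 35556), the brightest by mean per gene, leaving 19938 genes. R 4.3.3 and limma 3.58.1 (lmFit, eBayes, two-sided, Benjamini-Hochberg over all genes, threshold 0.05) compared 6 with 6 arrays without covariates. The fit was tested on simulated data. Alternatives were the methods' t-test, array weights, a trend, quantile normalization, median centring, a filter on the dimmest 30% of genes, cluster means, a block for replicate number or for array set, either set by itself, and the loss of any 1 array.

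The members and lists were chosen with earlier results of these data known. Named were the members, their 3 nearest genes, and, per list, up to 4 passing genes by size of difference plus the largest not passing. Procr, Itgb3, Itgb2, Tfpi, Hgfac, S100a10, St14, Hgf, Plg, Serpinb2, Serpina5, Serpini1, Serpinf2, C1qa, C1s2, F11, F12, Nkx6-1, Slc2a2, Vldlr, Plgrkt, Itgav, Igf2r, Itgam and Thbd were named after their values were seen. Of the 2 genes per cell type list that the rule adds, only Ucn3 and Pdgfrb are described.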

Additional observations from a re-analysis of the deposited data

Results flagged for a closer look

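Of 36 combinations of gene and group looked at (18 genes in 2 groups of 6 arrays), 1 had an array far from the others by Dixon's 95% critical value, and chance would give 1.8. Serpinh1 was at 9.41 in angiogenic replicate 4, against 9.19 in the next highest angiogenic array, a gap of 0.72 of the whole range of that group. None of the 5 measured members had such an array.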

How the results depend on the processing

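For 18 genes refitted under the alternatives (the 5 members and 13 named by rule from the 3 lists), no difference changed its sign. Serpina1c was left out by the filter on dim genes and so had 11 alternatives, against 12 for the others. Other genes were not refitted in this way, and between the sets the differences of, among others, S100a10 (0.14 in replicates 1 to 3, -0.10 in replicates 4 to 6), Serpina5 (-0.22, 0.07), F12 (-0.15, 0.02), F11 (-0.09, 0.03) and Plg (-0.04, 0.07) had opposite signs, none of them called. Serpinf1 and Plat kept their calls in 12 alternatives and in 12 fits without 1 array, where Serpinf1 ran from 1.01 to 1.12 and Plat from 0.41 to 0.50. Plau, at 0.36 and not passing, passed by the methods' t-test without adjustment (0.36), with median centring (0.37), quantile normalization (0.37), without dim genes (0.36), with the replicate block (0.36) and with the set as a block (0.36). It ran from 0.29 to 0.42 without 1 array. Plaur passed only by the t-test without adjustment (0.13), and Serping1 did not pass in replicates 1 to 3 alone (0.26) and ran from 0.24 to 0.30 without 1 array. Over all genes, 708 were higher and 189 lower. The t-test without adjustment gave 1529 and 1385, the set as a block 1172 and 547, the replicate block 449 lower and replicates 1 to 3 alone 66 lower. Without 1 array 110 to 178 were lower, the lowest without angiogenic replicate 6. In the plasminogen system 6 were higher and 0 lower. The t-test without adjustment gave 12 and 3, the replicate block 2 lower, and array weights, the set as a block and replicates 4 to 6 alone 1 lower each. Without 1 array 0 to 1 were lower, the 1 without non angiogenic replicate 2. Of the other serpins, where 2 were higher and 1 lower, the adjusted t-test gave 1 and 0, replicates 1 to 3 alone 0 lower, and fits without 1 array 1 to 2 higher. Of the complement list, where 3 were higher, 8 were higher by the t-test without adjustment, 7 with the set as a block, 5 with array weights, 5 with the replicate block and 2 to 5 without 1 array, the 5 without non angiogenic replicate 4. Arrays that share a replicate number correlated from 0.03 to 0.54 after removal of group means and 2 of 6 angiogenic arrays were nearest to the non angiogenic array of their own number, so the numbers were not taken as pairs. The cause of these changes was not tested.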

Other observations

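Genes of the activation of hepatocyte growth factor, a ligand that proteases activate, were also on the plasminogen list. Hgfac, the gene of its activator protease, had a log2 difference of -0.25 (standard error 0.08, adjusted p = 0.090 from limma), at 8.72 to 8.95 in angiogenic and 8.84 to 9.32 in non angiogenic islets, and passed with the set as a block (adjusted p = 0.032 from limma). St14, the gene of the epithelial protease matriptase, had -0.21 (standard error 0.07, adjusted p = 0.16, and 0.051 with the set as a block, both from limma), while the ligand gene Hgf had 0.18 (standard error 0.07, adjusted p = 0.20 from limma). Hgf was 0.025 higher in replicates 1 to 3 (limma adjusted p = 0.90) and 0.33 higher in replicates 4 to 6 (limma adjusted p = 0.041), and the test of the difference between the sets did not pass (limma adjusted p = 0.74).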
